A study of Mus musculus with 6 samples.

Results

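The genes described here are the importins and nuclear import carriers of the mouse oocyte, 10 of the 25631 genes listed in the deposited table. They were taken by symbol. They comprise 6 importin alpha genes (Kpna1, Kpna2, Kpna3, Kpna4, Kpna6 and Kpna7) and 4 genes of the importin beta family (Kpnb1, Ipo5, Ipo7 and Tnpo1). The group was selected on the FPKM of these same libraries, because Kpna2 differed between aminophylline and control there, and its values in that contrast, with those of its relatives, are therefore a description and not a test. RNA was sequenced from oocytes of naturally aged ICR mice, 14 months old, taken by puncture from large antral follicles after an injection of equine chorionic gonadotropin, which stimulates follicle growth. Mice of the aminophylline group (n = 3 libraries) drank 4.0 mM aminophylline, a theophylline salt that inhibits phosphodiesterases without selectivity, for 1 week and then water only for 3 weeks. The control group (n = 3 libraries) was of the same age, drank water without the drug, and is labelled as untreated. No genetic modification of the mice is described for either group. The sources used here give neither the mice nor the oocytes that went into a library, so the spread between libraries may be in part technical. Young oocytes were not sequenced here, so the values bear on treatment within old age and not on ageing itself.

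Proteins made in the cytoplasm reach the nucleus through the nuclear pore when a carrier binds their nuclear localization signal. In the classical route an importin alpha protein is the adaptor that holds the signal, and importin beta, the product of Kpnb1, carries the adaptor with its cargo through the pore, where the GTP-bound form of Ran releases them. Transportin (Tnpo1) and the importins Ipo5 and Ipo7 bind cargo themselves. Full-grown oocytes store the messenger RNA of such carriers for meiosis and for the first cell cycles of the embryo, and Kpna7 is known as the importin alpha of the egg and early embryo.

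Because the importin alpha genes are paralogs, their coding sequences were compared first, to see how far reads could be shared between them. Kpna2 lies at chr11:106988629-106999525 and Kpna7 at chr5:144983727-145009636 (GRCm38). Over their aligned coding bases, Kpna1, Kpna3, Kpna4, Kpna6 and Kpna7 were identical to Kpna2 at 64.2%, 64.3%, 62.9%, 65.1% and 63.6% of positions. The longest run of identical bases shared with Kpna2 was 17 bases for Kpna6 and 14 bases for each of the other four paralogs. The runs shared with Kpna7, the next most abundant member, and with Kpna6, the paralog with the longest run, are shown on the coding strand, 5′ to 3′, with the identical run in capitals and 25 bases on each side. For the pair with Kpna7 the run lies in exon 5 of Kpna2 (chr11:106991986-106991999, minus strand) and in exon 6 of Kpna7 (chr5:145005060-145005073, minus strand). For the pair with Kpna6 it lies in exon 10 of Kpna2 (chr11:106989400-106989416, minus strand) and spans exons 13 and 14 of Kpna6 (chr4:129648164-129649198, minus strand).
Kpna2 (pair with Kpna7): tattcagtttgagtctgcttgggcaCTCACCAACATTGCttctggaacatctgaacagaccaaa
Kpna7: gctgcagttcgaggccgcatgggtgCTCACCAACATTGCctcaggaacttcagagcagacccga
Kpna2 (pair with Kpna6): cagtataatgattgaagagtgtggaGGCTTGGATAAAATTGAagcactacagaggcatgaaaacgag
Kpna6: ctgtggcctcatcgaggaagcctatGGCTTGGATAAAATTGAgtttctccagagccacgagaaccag
On either side of these runs the sequences differ at many positions, so that the paralogs have no long stretch of coding sequence in common with Kpna2. The pseudogene Kpna2-ps is much closer. Its transcript was identical to the coding sequence of Kpna2 at 94.7% of aligned positions, with a longest identical run of 77 bases. The expression of Kpna2-ps was not examined here, and its part in the Kpna2 values was not tested.

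The expression value was the FPKM, in which the fragments on a gene are scaled to transcript length and to library size, so that levels of different genes are compared per length. As recovered from the FPKM, the libraries held 14112341 to 33641283 reads, with control library 2 the smallest. All 10 of 10 oocyte marker genes (such as Gdf9, Bmp15 and Zp3) had an FPKM of at least 1 in every library, and the oocyte markers summed to 19620 to 27010 FPKM. Of 10 granulosa markers, 7 were under 1 FPKM in all 6 libraries, with sums of 15.7 to 23.5 in the control group and 17.3 to 22.0 in the aminophylline group, most of it Cyp19a1 and Nr5a2. Of 10 macrophage markers, 8 reached 1 FPKM in control library 1 against 1 or 2 in every other library, with a sum of 244.6 FPKM there and of 81.1 to 102.3 elsewhere. C1qb made up most of the sum in those other libraries and was high in all 6. Without C1qb the macrophage sum was 172.3 FPKM in control library 1 and 1.30 to 3.13 FPKM elsewhere. Control library 1 also held the highest Kpna2 value. The part of these markers in the Kpna2 result was not tested, and the main values of Kpna2 are given without that library as well.

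The members spanned several orders of magnitude, and the 3 most abundant were all importin alpha genes. Kpna2 had a mean FPKM of 819.2 over the 6 libraries (lowest 617.9, highest 1146) and lay between place 58 and place 160 of all listed genes in each library. Kpna7 followed with a mean of 239.6 (179.7 to 350.5) and Kpna3 with 28.7 (19.0 to 34.0). Kpnb1 had a mean of 7.30 FPKM (4.10 to 11.1). These 4 genes stood in the same order in all 6 libraries, with Kpna2 at 2.73 to 4.95 times Kpna7, and Kpna7 at 6.18 to 13.2 times Kpna3. Tnpo1 (mean 3.16) and Ipo5 (mean 2.87) changed places, Tnpo1 being higher in 3 of 6 libraries, and do not differ beyond their spread. Kpna6 (mean 1.89) was below Ipo5 in 6 of 6 libraries and above Ipo7 in 6 of 6. The lowest members were Ipo7 (mean 0.488), Kpna4 (mean 0.233) and Kpna1 (mean 0.164), whose ranges overlapped each other.

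**Figure D1:**
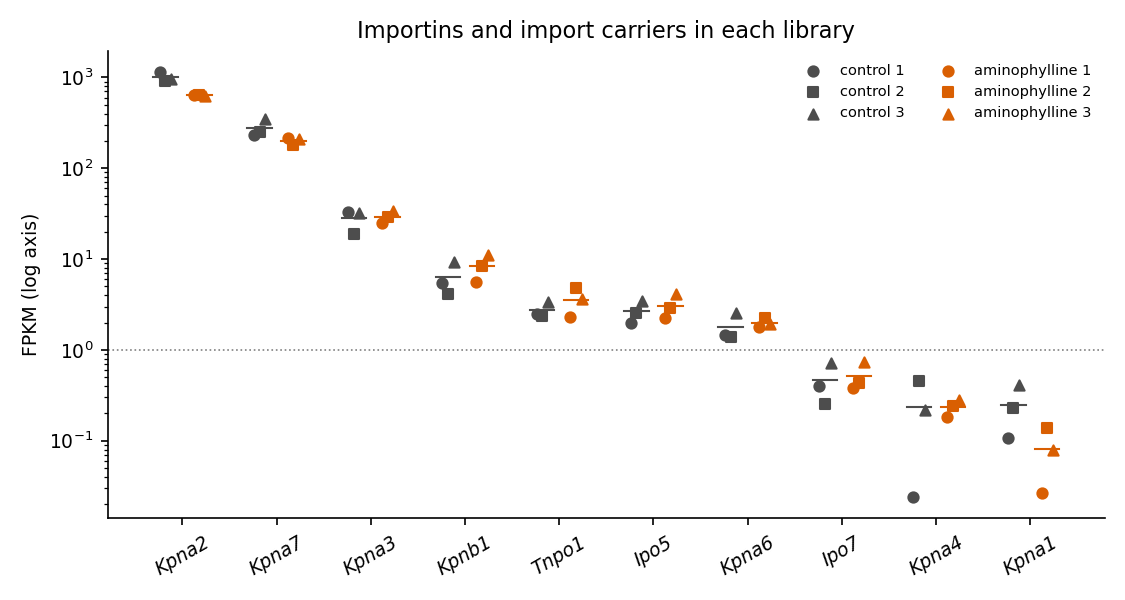
FPKM (log axis) of the 10 members in each of the 3 control and 3 aminophylline libraries, ordered by mean level, with a short line at each group mean and a dotted line at 1 FPKM. Kpna2 and Kpna7 lie far above the rest and are the members whose 3 aminophylline libraries all sit below the 3 control libraries, while Ipo7, Kpna4 and Kpna1 stay under 1 FPKM throughout.

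The difference between the groups was estimated for the 10340 genes that reached 1 FPKM in at least 3 libraries, on the log2(FPKM + 1) scale, where changes of low genes are understated. Of the 10 members, 7 were measured in that comparison. Kpna1, Kpna4 and Ipo7 did not reach the minimum. The mean was lower in the aminophylline group for 2 of the 7 members (Kpna2 and Kpna7) and higher for 5 (Kpna3, Kpna6, Kpnb1, Ipo5 and Tnpo1). Their median log2 difference was 0.12, beside 0.10 over all tested genes. At an unadjusted limma p under 0.05 and a fold over 1.5, 1 member (Kpna2) was lower, where 1.13% of all tested genes were, and 0 members were higher, where 2.08% were (3.21% in either direction). Over all genes 64.8% of those past these thresholds were higher, but 49.7% were when each library was rescaled to the same sum and 36.8% when it was centred on its median. At an unadjusted p under 0.05 alone there were 2 members (Kpna2 and Kpna7), beside 7.25% of all tested genes. With Benjamini-Hochberg adjustment over all tested genes, 0 members had a limma p under 0.05, as did 0.0% of all genes, and limma's voom on recovered reads also gave 0. With the replicate number as a block, 47 genes passed, 0 of them members. The groups did not overlap, with the aminophylline group lower, for 2 of the 7 members, beside 4.96% of all tested genes. No member was higher without overlap, beside 7.51%. Since the contrast was used to choose the members, nothing is read from these counts.

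Kpna2, the adaptor with the highest level, had FPKM values of 1146, 907.1 and 955.9 across the control libraries and of 643.7, 645.0 and 617.9 across the aminophylline libraries. Every aminophylline library lay below every control library, and the aminophylline values were within 1.04-fold of each other against 1.26-fold for the control values. The group means were 1003 ± 126 (SD, n = 3) and 636 ± 15.3 (SD, n = 3), so that the control mean was 1.58 times the aminophylline mean. The log2 difference was -0.65 (standard error 0.151), or -0.75 relative to the median of all tested genes. In reads recovered from the FPKM, these values stood for 78564, 26088 and 61956 reads in the control group and for 37036, 32564 and 38518 in the aminophylline group, so that counting error is small beside the spread between libraries. The read numbers assume a transcript of 2038 bases, since the FPKM fix them only up to a common factor. Kpna2 took 0.154% to 0.211% of the summed FPKM of a control library and 0.110% to 0.114% of that of an aminophylline library. Without control library 1 the log2 difference was -0.55, which is under the 1.5-fold threshold. The 2 other control libraries were still above all 3 aminophylline libraries. In bulk RNA a lower share of a transcript within cells, fewer cells of one kind and less RNA per cell of that kind cannot be told apart.

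Kpna7, the egg and embryo importin alpha, had FPKM values of 231.6, 250.8 and 350.5 across the control libraries and of 213.9, 179.7 and 211.0 across the aminophylline libraries. Its groups did not overlap either, but the gap was narrow, with control library 1 at 231.6 next to aminophylline library 1 at 213.9. The means were 278 ± 63.8 (SD, n = 3) and 202 ± 18.9 (SD, n = 3), and the log2 difference was -0.44 (standard error 0.183). It depended on control library 3, the highest, without which the log2 difference was -0.26. Kpna7 therefore differed from Kpna2 in which control library was highest.

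Kpna3, an adaptor of the importin alpha subfamily that also holds Kpna4, did not share the direction of Kpna2. Its FPKM was 33.3, 19.0 and 31.9 across the control libraries and 24.96, 29.1 and 34.0 across the aminophylline libraries, so that the groups overlapped widely. The log2 difference was 0.09 (standard error 0.233), and it moved between -0.16 and 0.23 when single libraries were left out. Kpna6, a close relative of Kpna1, had values of 1.45, 1.40 and 2.55 in the control group and of 1.81, 2.22 and 1.94 in the aminophylline group. The aminophylline values lay within the control range, with a log2 difference of 0.12 (standard error 0.219).

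Kpna1 and Kpna4 were close to the limit of measurement. Kpna1 stood on 4 to 69 reads per library, and averaged 0.247 ± 0.152 FPKM (SD, n = 3) in controls and 0.0812 ± 0.0551 FPKM (SD, n = 3) under aminophylline. Aminophylline library 2, at 0.137 FPKM, lay above control library 1, at 0.106 FPKM. Kpna4 stood on 3 to 32 reads, with 0.233 ± 0.217 (SD, n = 3) and 0.233 ± 0.0503 (SD, n = 3). Its lowest value, 0.0239 FPKM in control library 1, came from 3 reads, the smallest amount taken as measurable.

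Together the 6 importin alpha genes summed to 1412, 1179 and 1342 FPKM across the control libraries and to 884.5, 856.4 and 865.2 FPKM across the aminophylline libraries. The summed level was thus lower in every aminophylline library, with means of 1311 ± 120 (SD, n = 3) and 869 ± 14.4 (SD, n = 3). Most of the sum is Kpna2, so it largely repeats the difference for which Kpna2 was chosen and is no separate result. The composition of this sum was less distinct between the groups. Kpna2 made up 81.1%, 76.9% and 71.3% of it across the control libraries and 72.8%, 75.3% and 71.4% across the aminophylline libraries, ranges that overlap. The mean share differed by -3.28 percentage points, and by -0.93 without control library 1. The share of Kpna7 was 16.4%, 21.3% and 26.1% against 24.2%, 20.99% and 24.4%. The share of Kpna3 was 1.61% to 2.38% in the control group and 2.82% to 3.94% in the aminophylline group, without overlap. In every library these 3 genes left well under 1% of the sum to Kpna1, Kpna4 and Kpna6.

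**Figure D2:**
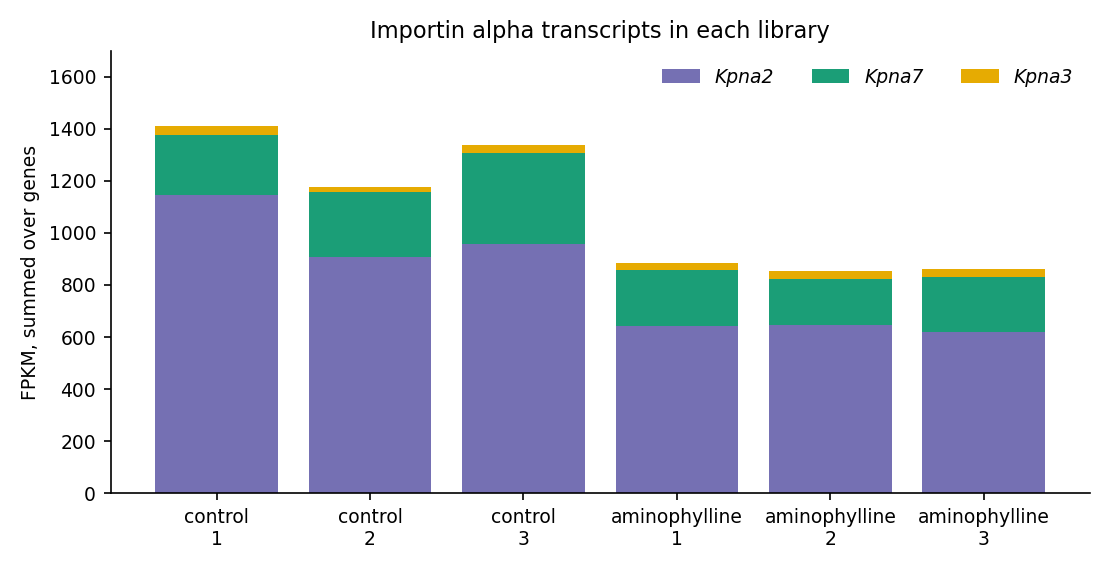
FPKM of Kpna2, Kpna7 and Kpna3 stacked in each library, the vertical axis starting at 0 and Kpna1, Kpna4 and Kpna6 being too low to be drawn. The stacks reach 1179 to 1412 FPKM across the control libraries and 856.4 to 884.5 FPKM across the aminophylline libraries (sums of all 6 importin alpha genes), and Kpna2 is the largest part of each.

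Set against the sum of its paralogs within each library, a measure that no scaling between libraries affects by a constant factor, Kpna2 was not clearly lower. That sum is mostly Kpna7, which was itself lower with aminophylline. The paralog sum was 308 ± 67.3 FPKM (SD, n = 3) in the control group and 233 ± 19.1 FPKM (SD, n = 3) in the aminophylline group, without overlap. The log2 ratio of Kpna2 to the summed FPKM of the other 5 importin alpha genes was 2.10, 1.74 and 1.31 across the control libraries and 1.42, 1.61 and 1.32 across the aminophylline libraries. The group values overlapped, and the difference of -0.27 was about as large as its standard error of 0.245. Control library 1 set much of it, since without that library the difference was -0.07, and without control library 3 it was -0.47. The ratio of Kpna2 to Kpna7 was 4.95, 3.62 and 2.73 in the control group and 3.01, 3.59 and 2.93 in the aminophylline group, which also overlap. On the log2 scale this ratio differed by -0.21, and by 0.01 without control library 1. The ratio of Kpna2 to Kpna3 was 34.4, 47.8 and 29.95 in the control group and 25.8, 22.2 and 18.2 in the aminophylline group, without overlap. Its log2 difference was -0.75, and -0.80 without control library 1. The groups thus overlapped in the ratio to Kpna7 and not in the ratio to Kpna3. Kpna2 was chosen for its own difference, and the log2 difference of Kpna3 was 0.09. The ratio to Kpna3 therefore largely restates that choice and is no separate result.

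The carriers of the importin beta family were expressed at low levels and overlapped between the groups. Kpnb1, the partner of the importin alpha proteins, had FPKM values of 5.49, 4.10 and 9.25 across the control libraries and of 5.53, 8.30 and 11.1 across the aminophylline libraries. Control library 3 and aminophylline library 3 were the highest of their groups, and the log2 difference was 0.37 (standard error 0.306). It was 0.15 without control library 2, 0.16 without aminophylline library 3, 0.60 without aminophylline library 1 and 0.65 without control library 3. In the last case Kpnb1 passed the unadjusted p of 0.05 and the 1.5-fold threshold. In that fit 876 of the 10340 tested genes were higher past these thresholds, against 215 with all libraries. Between libraries of the same number, which the labels do not state to be pairs, Kpnb1 was higher with aminophylline in 3 of 3. The summed importin alpha FPKM was 229.8 ± 75.1 times (SD, n = 3) that of Kpnb1 in the control group and 113.7 ± 41.9 times (SD, n = 3) in the aminophylline group, with 1 aminophylline library (159.9) above the lowest control library (145.0). This ratio was lower with aminophylline in 3 of 3 pairs of the same number. Its numerator is mostly Kpna2, which was chosen for its difference. For these counts over libraries of the same number no share over all tested genes is given, so nothing is read from them.

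Tnpo1, the carrier of many RNA-binding proteins, had 2.504, 2.37 and 3.37 FPKM in the control group and 2.32, 4.77 and 3.64 FPKM in the aminophylline group, a log2 difference of 0.26 (standard error 0.251). It was 0.08 without aminophylline library 2 and 0.47 without aminophylline library 1. Ipo5, an importer of ribosomal proteins and histones among others, had 1.997, 2.54 and 3.49 FPKM against 2.22, 2.87 and 4.08 FPKM, a log2 difference of 0.14 (standard error 0.249). Ipo7, which shares part of that cargo, had 0.403, 0.255 and 0.726 FPKM against 0.383, 0.427 and 0.734 FPKM, from 17 to 109 reads per library. In each of these 3 genes the values of the groups were interleaved. Between libraries of the same number, Ipo5 was higher with aminophylline in 3 of 3 pairs, and Tnpo1 and Ipo7 in 2 of 3. No share over all tested genes stands beside these counts, so nothing is read from them. Kpnb1, Ipo5 and Ipo7 all had their highest control value in library 3 and their highest aminophylline value in library 3. Kpna2 did not show this pattern, but it is not particular to these carriers. Over all tested genes, the deviations of the libraries numbered 3 from their group means had a correlation of 0.552. Several other nuclear transport genes had the pattern too.

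The other genes of nuclear transport were described from 4 lists, 31 genes in all, of which 24 were tested. Of these, 18 had a higher mean in the aminophylline group and 6 a lower one, with a median log2 difference of 0.19 beside 0.10 over all tested genes. The share of all tested genes with a higher mean is not given here. Since the balance of directions among the called genes changed with the scaling, nothing is read from this split. Among other import receptors, 0 of 5 tested genes passed the unadjusted thresholds (median 0.25). The most abundant, Snupn, which imports spliceosomal particles, had 83.4 ± 13.96 (SD, n = 3) and 88.2 ± 4.88 (SD, n = 3) FPKM in the control and aminophylline groups. Ipo4, named after its values were seen, was the 1 gene of this list without overlap, with 1.09, 1.55 and 2.05 FPKM against 2.17, 2.07 and 2.18 FPKM. Over the 4 lists 2 of the 24 tested genes were higher without overlap, beside 7.51% of all tested genes, so that nothing is read from this. Among the exportins, which carry proteins and RNA out of the nucleus, 0 of 5 passed (median 0.19). The most abundant was Cse1l, the exportin that returns importin alpha to the cytoplasm, with 5.70 ± 1.09 (SD, n = 3) and 4.93 ± 1.44 (SD, n = 3) FPKM. Its values overlapped between the groups.

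Among the genes of the Ran cycle and the import cofactors, 0 of 9 passed (median 0.18). The most abundant, Ranbp1, which helps to take Ran off the carriers, had 127 ± 20.2 (SD, n = 3) and 127 ± 21.3 (SD, n = 3) FPKM. Of the 5 spindle assembly factors that importins bind, 1 was higher past the unadjusted thresholds and 0 were lower (median -0.09). This was Kifc1, a motor of the kinesin-14 family that moves towards the minus end of microtubules. Its FPKM was 0.431, 0.664 and 1.27 across the control libraries and 3.47, 1.86 and 4.31 across the aminophylline libraries, without overlap. The log2 difference was 1.22 (standard error 0.271), with a limma adjusted p of 0.651. At this low level it depended on the pseudocount, being 1.93 with a pseudocount of 0.1 and 2.08 with voom on recovered reads. Blocking on the replicate number gave Kifc1 a limma adjusted p of 0.00834, the lowest of its alternatives, which reached up to 0.999. Kifc1 was the 1 gene of the 24 tested past the unadjusted thresholds, beside 3.21% of all tested genes (2.08% higher), so that the count is near the background.

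**Figure D3:**
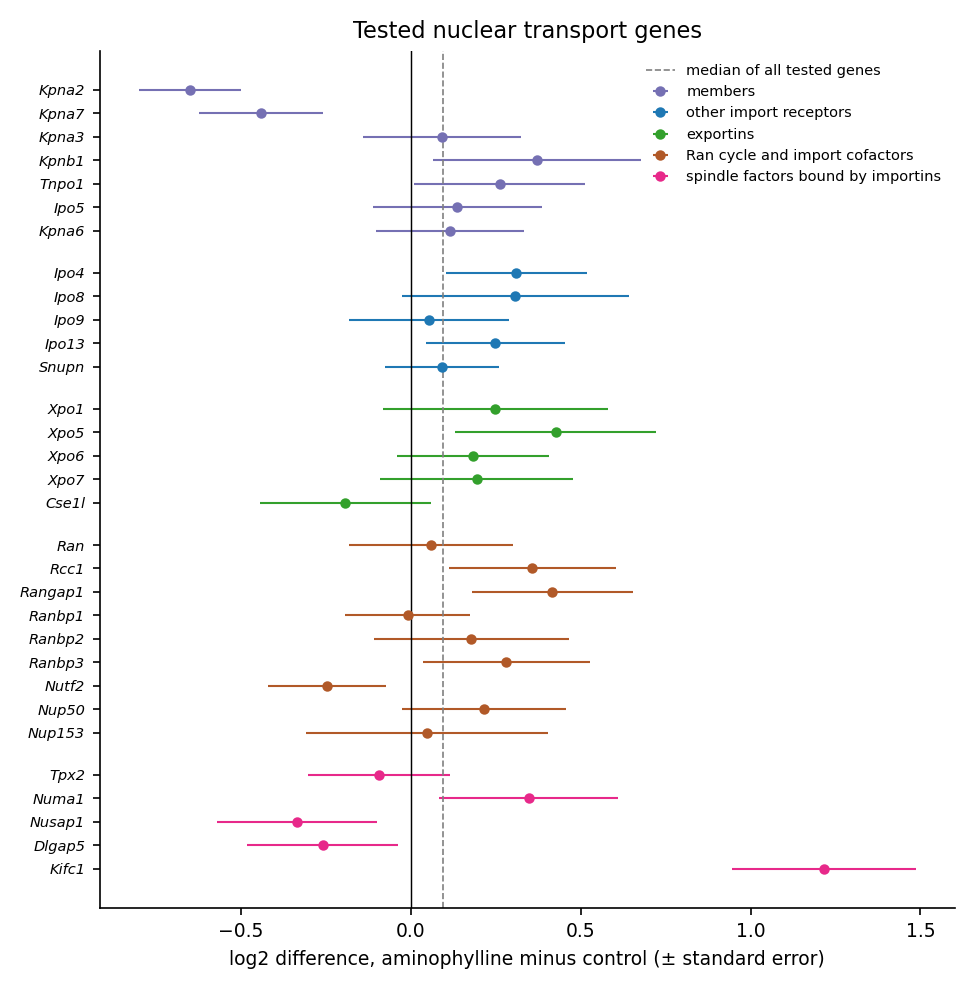
Log2 difference (aminophylline minus control, horizontal axis, with standard errors from limma as bars) of the 7 tested members and the 24 tested genes of the other nuclear transport lists, with the median of all tested genes, 0.10, as a dashed line. Kpna2 at -0.65 and Kpna7 at -0.44 lie lowest, Kifc1 at 1.22 highest.

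The genes whose profile over the 6 libraries was most like that of Kpna2 were sought among 4272 genes with a mean FPKM of at least 10, by the root mean square difference of log2(FPKM + 1) after subtracting each gene's mean. The nearest were Serpine2, a secreted inhibitor of serine proteases (0.0654), 4933434E20Rik (0.0658), Psmd5, a chaperone of proteasome assembly (0.0791), Gtf2h2, a subunit of the general transcription factor TFIIH (0.0810), and Gm839 (0.0829). Their likeness to Kpna2, which is highest in control library 1 and lower in every aminophylline library, was fixed by this choice. Serpine2, for example, had 254.0, 198.4 and 219.8 FPKM across the control libraries and 144.7, 146.8 and 155.2 FPKM across the aminophylline libraries. None of these 5 genes is a nuclear transport gene of the lists used. Kpna7 took place 647 in this order (0.284) and Kpna3 place 2214 (0.441). The order depended on control library 1. Without it the nearest genes were Dclre1a, Cyp4f39, Farsb, Abraxas1 and Rabif, 0 of 5 being shared with the first search, and the first 5 lay between place 10 and place 21. Kpna7 then took place 199 and Kpna3 place 3404.

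**Figure D4:**
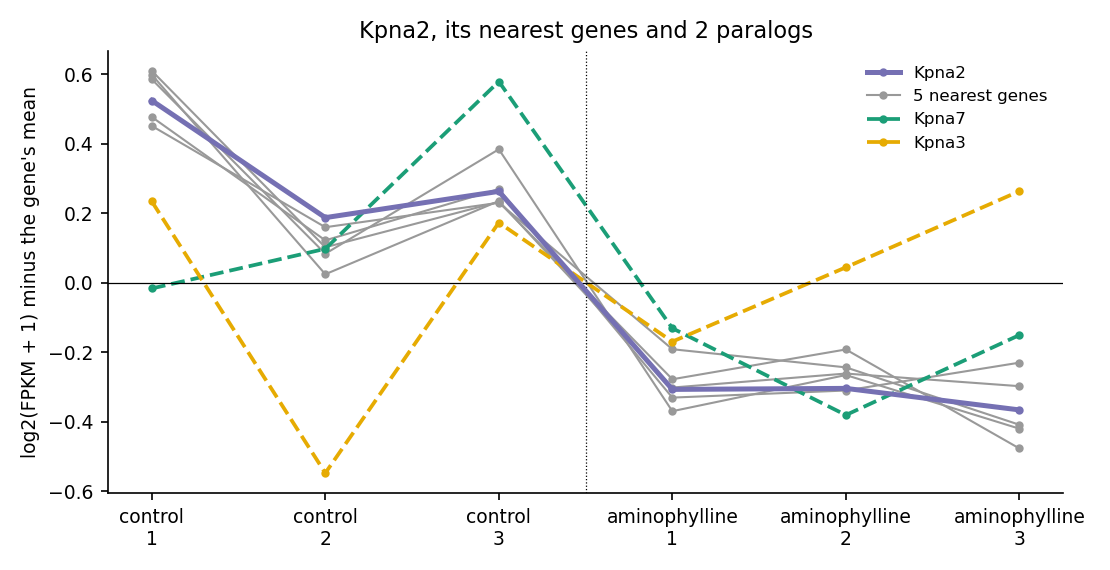
Log2(FPKM + 1) minus the gene's mean over the 6 libraries (vertical axis) for Kpna2, the 5 genes nearest to it and the paralogs Kpna7 and Kpna3 in each library, the lines only joining the points of a gene. Kpna2 and the genes chosen for their likeness to it peak in control library 1 and are low in all 3 aminophylline libraries, Kpna7 peaks in control library 3, and Kpna3 is lowest in control library 2.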

How the data were processed

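The authors deposited FPKM per gene, 1 column per library. The submitters' processing notes name GRCm38 and mm10. The aligner, counter and annotation are not given in the sources used here. Groups came from the labels. Members and gene lists were chosen with earlier results of these data known.

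Reads were recovered from whole-number ratios of FPKM between libraries (100.0% of values whole within 0.0001 reads, over 22583 genes). For 1166 genes the reads were multiplied by a fixed factor, to make the implied length whole or, for Kpna2 (doubled), to bring it near an annotated transcript. The floor was 3 reads, for counting error only.

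Genes past the filter (FPKM of at least 1 in at least 3 libraries) were tested with limma 3.58.1 (R 4.3.3; unpaired, two-sided, trended variance) on log2(FPKM + 1), after a check on simulated data. Thresholds were an unadjusted p of 0.05 with a 1.5-fold change, and a Benjamini-Hochberg adjusted p of 0.05. Standard errors of tested genes are limma's, and those of ratios come from the group variances. Named genes were the members, the list genes past the unadjusted thresholds or else a list's most abundant gene, and the 5 genes nearest to Kpna2. Ipo4, Xpo5, Nusap1 and the genes nearest to Kpna2 without control library 1 were named outside that rule, after their values were seen. The labels do not state that libraries with the same number are pairs. Their deviations from the group means had correlations of 0.138, 0.14 and 0.552 across genes. Libraries of different numbers were not compared in this way, so these values cannot show a pairing. The replicate block was run only as an alternative. The others were a pseudocount of 0.1, no filter, a mean FPKM of at least 5, TPM, median centring, quantile normalization, an unmoderated model, library weights, voom on recovered reads, and leaving out each library. The ratios of Kpna2 to Kpna7 and Kpna3, its share and its nearest genes without control library 1 were added after seeing the data. Coding sequences were those of GENCODE M21, and gene positions those of RefSeq (GRCm38).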

Additional observations from a re-analysis of the deposited data

How the results depend on the processing

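The log2 difference of Kpna2 kept its direction under all 16 alternatives, from -0.73 with median centring to -0.55 without control library 1. That of Kpna7 did too, from -0.56 to -0.26. Kpna3 and Ipo5 changed sign with single libraries left out, and neither passed a threshold. The members past the unadjusted thresholds numbered 1, and 0 to 2 with single libraries left out. Kpna2 dropped out without control library 1. Kpnb1 was added, higher, without control library 3, where 876 of the 10340 tested genes were higher past the thresholds. With single libraries left out the log2 difference of Kpnb1 ranged from 0.15 to 0.65 and that of Tnpo1 from 0.08 to 0.47. No member had an adjusted p under 0.05 in any fit of limma, the replicate block included, where that of Kpna2 was 0.0569 and the unadjusted count of members was 1.

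Over all genes, 332 passed the unadjusted thresholds. The count was 200 with the stricter filter, 158 with the unmoderated model, 975 with library weights, 499 with voom on recovered reads, and 183 to 1006 with single libraries left out (183 without control library 1, 763 without control library 2, 1006 without control library 3, 594 without aminophylline library 1). With the replicate block 47 genes had an adjusted p under 0.05, where limma without it gave 0, and the cause was not tested. Of the called genes 64.8% were higher with FPKM as deposited, 36.8% with median centring, 36.9% with quantile normalization and 49.7% with TPM. Of the other nuclear transport genes 1 passed. The count was 0 with the stricter filter, which leaves Kifc1 out, 2 with library weights (Xpo5 added), and 1 to 2 with single libraries left out (Nusap1 added without control library 2, Xpo5 without control library 3). The log2 ratio of Kpna2 to its paralogs differed by -0.27, by -0.24 with quantile normalization, and by -0.47 to -0.07 with single libraries left out. TPM, median centring and voom cannot move a ratio within a library. The low read numbers of Kpna1, Kpna4 and Ipo7 limit what can be seen for these genes.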
